A study of Mus musculus with 15 samples.

Results

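The genes peaking at PGCLC day 2 are 100 of the 22028 protein-coding genes of the deposited count table, and they were chosen by their measured values in these samples. For each gene, L was log2 of a group's mean CPM plus 1, with CPM the count divided by the sample's total and multiplied by 1000000, and the score was L of PGCLCd2 minus the highest L among ESC, EpiLC and PGCLCd6. The 100 genes with the highest scores were taken among the 11244 genes whose PGCLCd2 mean was at or above that of PGCLCd4; 1915 of those 11244 had a score above 0. Because of that choice, the members' height in PGCLCd2 against the other groups is a description here and carries no test.

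RNA of 15 samples was sequenced, in 5 groups of 3 replicates. All groups came from a clonal mouse embryonic stem cell (ESC) line with doxycycline-inducible transgenes for Prdm1, Prdm14 and Nanog, integrated by piggyBac, and for Tfap2c, brought in by a lentivirus, with rtTA driven by the CAG promoter and a Stella-eGFP reporter. ESCs were grown in 1 µM PD0325901, 3 µM CHIR99021 and LIF, and epiblast-like cells (EpiLCs) were made from them in 48 h with 20 ng/ml Activin A and 12 ng/ml bFGF. For primordial germ cell-like cells (PGCLCs), 2000 EpiLCs per well were aggregated in GK15 medium with 2 µg/ml doxycycline, and eGFP+ cells were sorted on day 2, 4 or 6 (PGCLCd2, PGCLCd4 and PGCLCd6); ESCs and EpiLCs were not sorted. The counts do not separate reads of the transgenes from reads of the endogenous genes. No label says that replicates were separate cultures, so the p-values below measure spread between samples. Total counts per sample ran from 22555021 to 29790085 in ESCs (median 27453967), 27839735 to 32594579 in EpiLCs (29112257), 28907803 to 34808685 in PGCLCd2 (33433779), 32146690 to 34245229 in PGCLCd4 (33311717) and 32530096 to 42725681 in PGCLCd6 (34476646).

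The labels were checked against marker genes, given as mean CPM ± SD over 3 replicates. Klf4, a naive pluripotency factor, was at 173 ± 4.62 in ESCs and 15.1 ± 1.76 in EpiLCs, and Fgf5, a marker of the formative and primed states, was at 54.8 ± 5.18 in EpiLCs and at 0.867 ± 0.386 in PGCLCd2. Dppa3, the gene of the Stella reporter, went from 79.8 ± 12.97 in EpiLCs to 437 ± 25.3, 455 ± 60.7 and 515 ± 46.2 on PGCLC days 2, 4 and 6. Nanos3, an RNA-binding protein of early germ cells, was at 1.17 ± 0.416 in EpiLCs and 14.4 ± 1.49, 17.6 ± 4.70 and 7.92 ± 2.12 on those days. Of the induced factors, which are also germ cell markers, Tfap2c was at 52.5 ± 3.15 in EpiLCs and 224 ± 8.39 in PGCLCd2, but Prdm14 was at 90.2 ± 14.2 in EpiLCs, 90.2 ± 2.72 in PGCLCd2 and 77.6 ± 7.38 in PGCLCd6, and Prdm1 at 66.97 ± 10.03, 103 ± 7.34 and 64.6 ± 2.97. Klf4, Fgf5 and Nanos3 thus followed the labels. Prdm14 did not set PGCLCs apart from EpiLCs, and neither did Prdm1 in PGCLCd6. Other naive markers, Esrrb, Nr0b1, Zfp42 and Tbx3, were also lower in EpiLCs than in ESCs, but differed in PGCLCd2. Esrrb was at 592 ± 8.05 in ESCs and 599 ± 38.0 in PGCLCd2, and Nr0b1 at 60.4 ± 2.18 and 109 ± 23.8. Zfp42 was at 504 ± 9.74 and 319 ± 11.96, and Tbx3 at 156 ± 3.39 and 17.0 ± 1.07. Esrrb and Nr0b1 thus did not mark ESCs against PGCLCd2. The PGCLCs were sorted on the Stella reporter, so their high Dppa3 is no separate check of the labels.

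Some libraries stand apart. PGCLCd6 replicate 1 had a count in 18061 of the 55536 genes, against 21103 to 24343 in the other 14 samples. PGCLCd2 replicate 2 was the lowest of its group for a block of stress-response genes among the members, and replicate 2 of each PGCLC day was high for genes of hypoxia and glycolysis. Counts that move without these libraries are given beside the counts with them. With PGCLCd6 replicate 1 left out of the rule, 90 of the 100 members were chosen again, and with PGCLCd2 replicate 2 left out, 74 were.

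Primordial germ cells are the embryonic precursors of sperm and eggs, and in the mouse they are set aside from the epiblast when BMP signals induce Prdm1, Prdm14 and Tfap2c. In culture, EpiLCs stand in for the epiblast, and forced expression of these factors can take the place of the cytokines. The integrated stress response is a separate pathway that several members belong to: kinases that sense amino acid shortage, unfolded proteins in the endoplasmic reticulum (ER) or other stress phosphorylate eIF2alpha, translation of the transcription factor ATF4 goes up, and ATF4 with its partners activates genes of amino acid transport and synthesis, glutathione turnover and mitochondrial folate metabolism.

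The members together held between 0.404 and 0.438% of all counts in the PGCLCd2 samples, 0.313 to 0.343% in PGCLCd4, 0.193 to 0.206% in PGCLCd6, 0.109 to 0.113% in EpiLCs and 0.0916 to 0.0953% in ESCs. In bulk samples, fewer cells with a transcript and less of it per cell cannot be told apart. The median of the members' mean CPM was 2.86 in ESCs, 3.72 in EpiLCs, 15.9 in PGCLCd2, 12.3 in PGCLCd4 and 6.66 in PGCLCd6. Scores ran from 2.21 to 0.71 with a median of 0.92. The highest of ESC, EpiLC and PGCLCd6 was PGCLCd6 for 66 members, EpiLC for 23 and ESC for 11. For 85 members the lowest PGCLCd2 sample lay above every ESC, EpiLC and PGCLCd6 sample, and for 53 it lay above every PGCLCd4 sample; both counts follow from the choice of the members. In PGCLCd2, 10 members had a mean of at least 100 CPM, 65 had at least 10 CPM and 26 were under 5 CPM. Under 1 CPM were Abcg5 (0.857), Dok5 (0.928) and Cdh5 (0.895), of which the first pair is named after their values were seen.

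**Figure D1:**
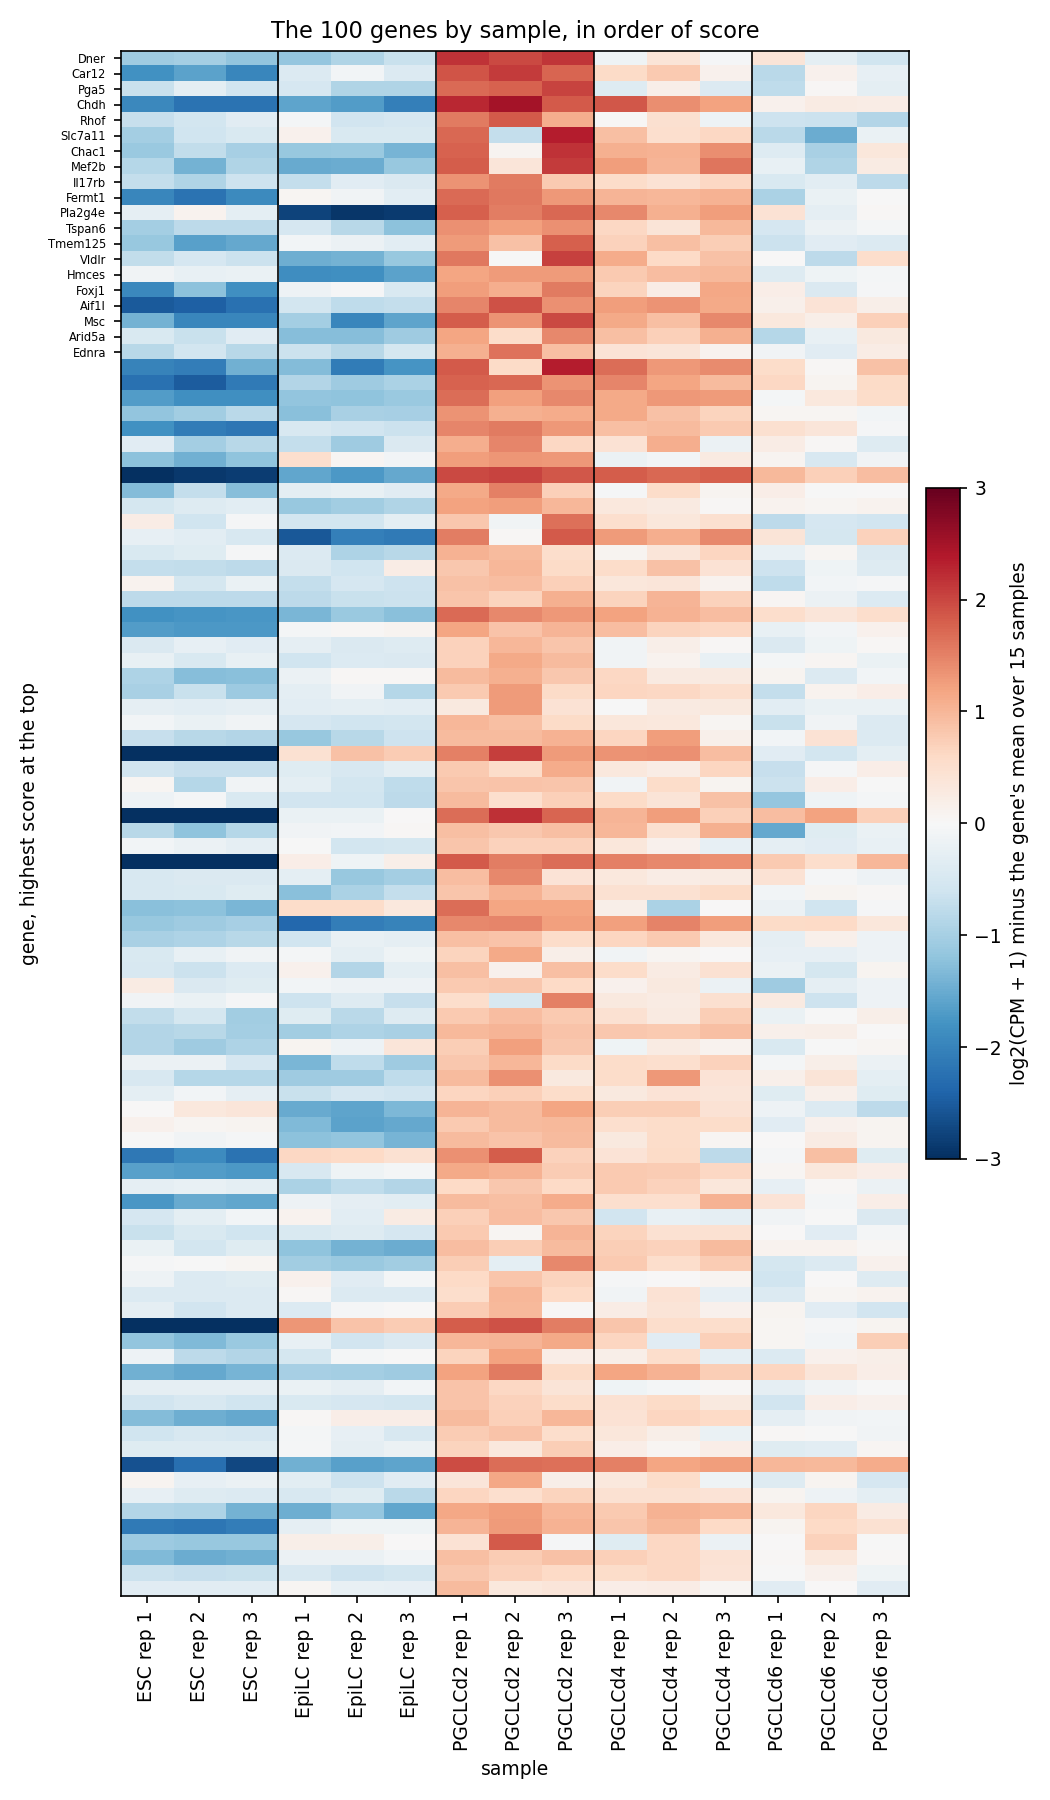
The 100 members (down the side, highest score at the top, the first 20 labelled) in the 15 samples (across), coloured by log2(CPM + 1) minus the gene's mean over the samples. The PGCLCd2 columns are the reddest for most genes and the PGCLCd4 columns come next, while a few genes are pale or blue in PGCLCd2 replicate 2 alone of its group.

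The days after the peak divided the members. PGCLCd4 was the second highest group for 92 of them. The PGCLCd4 mean was at least 80% of the PGCLCd2 mean for 32 members, between 50 and 80% for 45 and under 50% for 23, with a median of 68.7% and a range of 11.4 to 99.5%. By PGCLCd6 the median was 41.3%. A steep drop by day 4 was thus the feature of a smaller set of members.

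Dner (ENSMUSG00000036766, chr1:84369839-84696221 on GRCm38) had the highest score, 2.21; it encodes a transmembrane protein with EGF-like repeats, related to the Notch ligands. In replicates 1, 2 and 3 it was at 15.2, 13.4 and 14.9 CPM in PGCLCd2, at 2.33, 3.72 and 2.54 in PGCLCd4 and at 3.71, 1.94 and 1.38 in PGCLCd6, with the ESC and EpiLC samples at 0.604 to 1.27. All PGCLCd2 samples lay above all others, and the day 4 mean was 19.8% of the day 2 mean. Car12 (ENSMUSG00000032373, chr9:66713686-66766845; score 2.17), a membrane-bound carbonic anhydrase, was at 22.2, 25.6 and 19.9 CPM in PGCLCd2, 8.34, 9.76 and 5.81 in PGCLCd4 and 2.58, 5.87 and 4.24 in PGCLCd6, against 0.765, 1.06 and 0.604 in ESCs and 3.74, 4.94 and 3.71 in EpiLCs. Its PGCLCd6 samples overlapped its EpiLC samples. Pga5 (ENSMUSG00000024738, chr19:10668956-10678071; score 2.14), which encodes a pepsinogen of the stomach, had the steepest drop of all members. It was at 5.05, 5.43 and 6.67 CPM in PGCLCd2 and at 0.436, 1.11 and 0.409 in PGCLCd4, 11.4% of the day 2 mean, and at 0 to 0.936 in the ESC, EpiLC and PGCLCd6 samples.

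Rhof, Prlr and Fgfr2 also fell by day 4 to under 50% of their day 2 means. Rhof (score 1.89), a small GTPase that forms filopodia, was at 13.7, 16.7 and 9.57 CPM in PGCLCd2 and 4.08, 5.85 and 3.45 in PGCLCd4, where its lowest sample lay among those of ESCs and EpiLCs (2.04 to 3.77). Of its exonic bases, 11.4% lie on those of Tmem120b on the other strand. The paper names a directional kit for the libraries, but the strand used in counting is not stated. Prlr (score 0.89), the receptor for prolactin, was at 9.36, 6.37 and 6.41 CPM in PGCLCd2, 2.68, 0.690 and 2.28 in PGCLCd4 and 1.89, 1.17 and 2.18 in PGCLCd6, and at 3.77, 3.77 and 3.06 in EpiLCs, so both later PGCLC days lay under the EpiLC samples. In the fit over all 15 samples, Prlr was lower in PGCLCd6 than in EpiLCs, with a log2 fold change of -1.24 (SE 0.35) in 3 of 3 samples (adjusted p = 0.00553, edgeR's quasi-likelihood test with Benjamini-Hochberg adjustment). PGCLCd4 against EpiLCs gave -1.03 (SE 0.35) in 3 of 3 samples (adjusted p = 0.0180 by edgeR's quasi-likelihood test with Benjamini-Hochberg adjustment), and this call for Prlr was lost when any of 3 libraries was left out. The value was -0.98 without EpiLC replicate 1, -0.97 without EpiLC replicate 2 and -0.64 without PGCLCd4 replicate 2; over all alternatives the adjusted p of the edgeR quasi-likelihood test or of DESeq2, both with Benjamini-Hochberg adjustment, ran from 0.00389 to 0.0739. Fgfr2 (score 0.77), a receptor tyrosine kinase for fibroblast growth factors, was at 42.5, 30.3 and 28.4 CPM in EpiLCs, 60.5, 64.7 and 49.2 in PGCLCd2, 30.1, 23.99 and 24.2 in PGCLCd4 and 17.2, 16.01 and 17.6 in PGCLCd6, and at 0.576 to 0.765 in ESCs. Its peak thus stood on an EpiLC level that was already high.

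At the other end are members that fell little from day 2 to day 4. Phf19 (score 1.09), a Polycomb-like subunit that binds the repressive complex PRC2, was at 239.6, 251 and 223 CPM in PGCLCd2, 214, 201 and 211 in PGCLCd4 and 119, 99.6 and 115 in PGCLCd6, against 5.46 to 7.55 in ESCs and 17.6 to 20.2 in EpiLCs. Porcn (score 0.88), the ER enzyme that attaches a fatty acid to WNT proteins, was at 77.3, 78.2 and 66.4 CPM in PGCLCd2 and 66.3, 79.8 and 67.98 in PGCLCd4, sets of samples that overlap, and at 41.8, 42.5 and 35.4 in PGCLCd6. The day 4 mean was 87.8% of the day 2 mean for Phf19, with no overlap of samples between these days, and 96.4% for Porcn. Ero1l (score 0.80), the oxidase that drives disulfide bonds in the ER, was at 195, 225 and 196 CPM in PGCLCd2 and 225, 209.7 and 162 in PGCLCd4, again with overlap. S100a6, a small calcium-binding protein, was at 4.40, 4.08 and 4.45 and 4.76, 3.03 and 5.08 CPM on these days, and its day 4 mean was 99.5% of day 2, the highest share of all members. In PGCLCd6 it was at 0, 1.24 and 1.51, all under the PGCLCd4 samples, with the 0 in replicate 1, the library with the fewest genes detected.

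**Figure D2:**
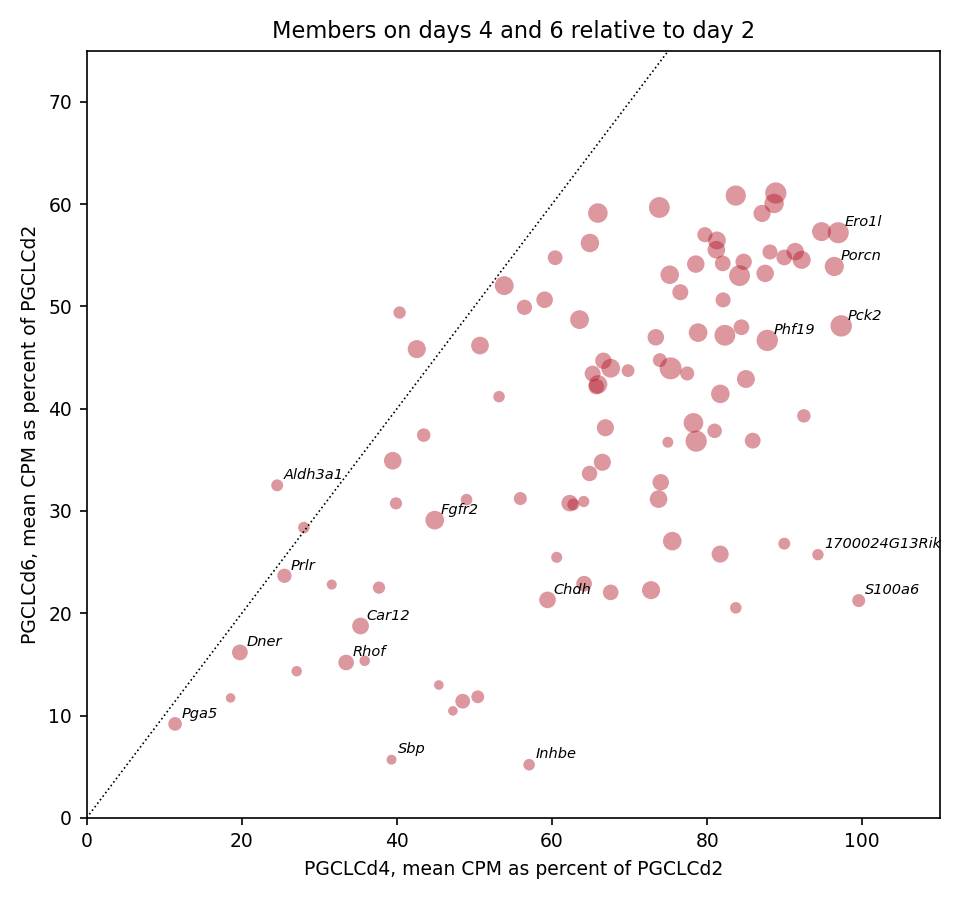
Each point is a member, placed by its PGCLCd4 mean (across) and its PGCLCd6 mean (up), both as a percent of its PGCLCd2 mean, with a larger point for a higher PGCLCd2 level and a dotted line where days 4 and 6 are equal. Pga5, Dner, Prlr, Car12 and Rhof sit at the left, and S100a6, Porcn, Pck2 and Ero1l at the right edge.

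Some members are genes of the integrated stress response. From a list of 28 genes of this response and of the unfolded protein response, 4 are members: Chac1, Vldlr, Slc7a11 and Aldh1l2. Slc7a11 (score 1.83) is the cystine and glutamate exchanger of the plasma membrane. It was at 10.2, 1.07 and 16.5 CPM in PGCLCd2, 5.41, 3.81 and 4.23 in PGCLCd4, 0.957, 0.211 and 2.00 in PGCLCd6, 0.692, 1.24 and 1.48 in ESCs and 2.73, 1.47 and 1.48 in EpiLCs. PGCLCd2 replicate 2 lay among the ESC and EpiLC samples, and the other PGCLCd2 samples above every sample of the other groups. Chac1 (score 1.82), an enzyme that breaks down glutathione, was at 62.8, 18.9 and 82.9 CPM in PGCLCd2, 38.6, 37.5 and 48.2 in PGCLCd4, 13.3, 8.54 and 22.7 in PGCLCd6 and 6.18 to 10.3 in ESCs and EpiLCs. Here PGCLCd2 replicate 2 lay under all PGCLCd4 samples and within the range of PGCLCd6. Vldlr (score 1.43), the very low density lipoprotein receptor, was at 29.3, 9.03 and 41.4 CPM in PGCLCd2 and 21.1, 14.3 and 17.6 in PGCLCd4, and Aldh1l2 (score 0.79), a mitochondrial dehydrogenase of folate metabolism, was at 5.05, 1.94 and 8.76 and 5.23, 4.20 and 5.14. Of Aldh1l2's exonic bases, 14.1% are shared with D10Wsu102e on the other strand, which held 11774 counts in PGCLCd2 against 530 for Aldh1l2.

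These 4 belong to a wider set marked by a single library. After 1 was added to each CPM, PGCLCd2 replicate 2 was under 0.5 of the mean of replicates 1 and 3 for 9 members: Slc7a11, Chac1, Mef2b, Vldlr, Hhip, Inhbe, Pck2, Adm2 and Aldh1l2, of which Hhip and Adm2 are named after their values were seen. Among all 11803 protein-coding genes at 1 CPM or more in PGCLCd2, 64 were that low, or 0.542%. Without the added 1, replicate 2 was 8.04% of the mean of the others for Slc7a11, 18.3% for Inhbe, 20.9% for Adm2, 25.6% for Vldlr, 26.0% for Chac1, 28.0% for Aldh1l2, 31.0% for Mef2b, 31.7% for Pck2 and 33.3% for Hhip. Over all members the median was 105%, so the library was not low in general. Mef2b, a MADS-box transcription factor, was at 30.8, 10.6 and 37.4 CPM in PGCLCd2, and Hhip, which binds hedgehog ligands at the cell surface, was at 57.6, 23.2 and 81.8. Inhbe, a beta subunit of inhibins and activins, was at 2.03, 0.588 and 4.40 CPM, and Adm2, a secreted peptide of the adrenomedullin family, at 3.29, 1.14 and 7.61. Pck2, the mitochondrial phosphoenolpyruvate carboxykinase, was at 290.3, 103 and 359 CPM in PGCLCd2, 246, 214 and 272 in PGCLCd4 and 130.3, 69.02 and 162 in PGCLCd6. In each of the 9 the order of the PGCLCd2 samples was the same, with replicate 3 highest and replicate 2 lowest. Tnnt3, a troponin of fast skeletal muscle, was the reverse, at 1.97, 6.92 and 1.15 CPM. Its score was 0.71 with all samples and -0.05 without PGCLCd2 replicate 2, so its place among the members rests on that library.

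**Figure D3:**
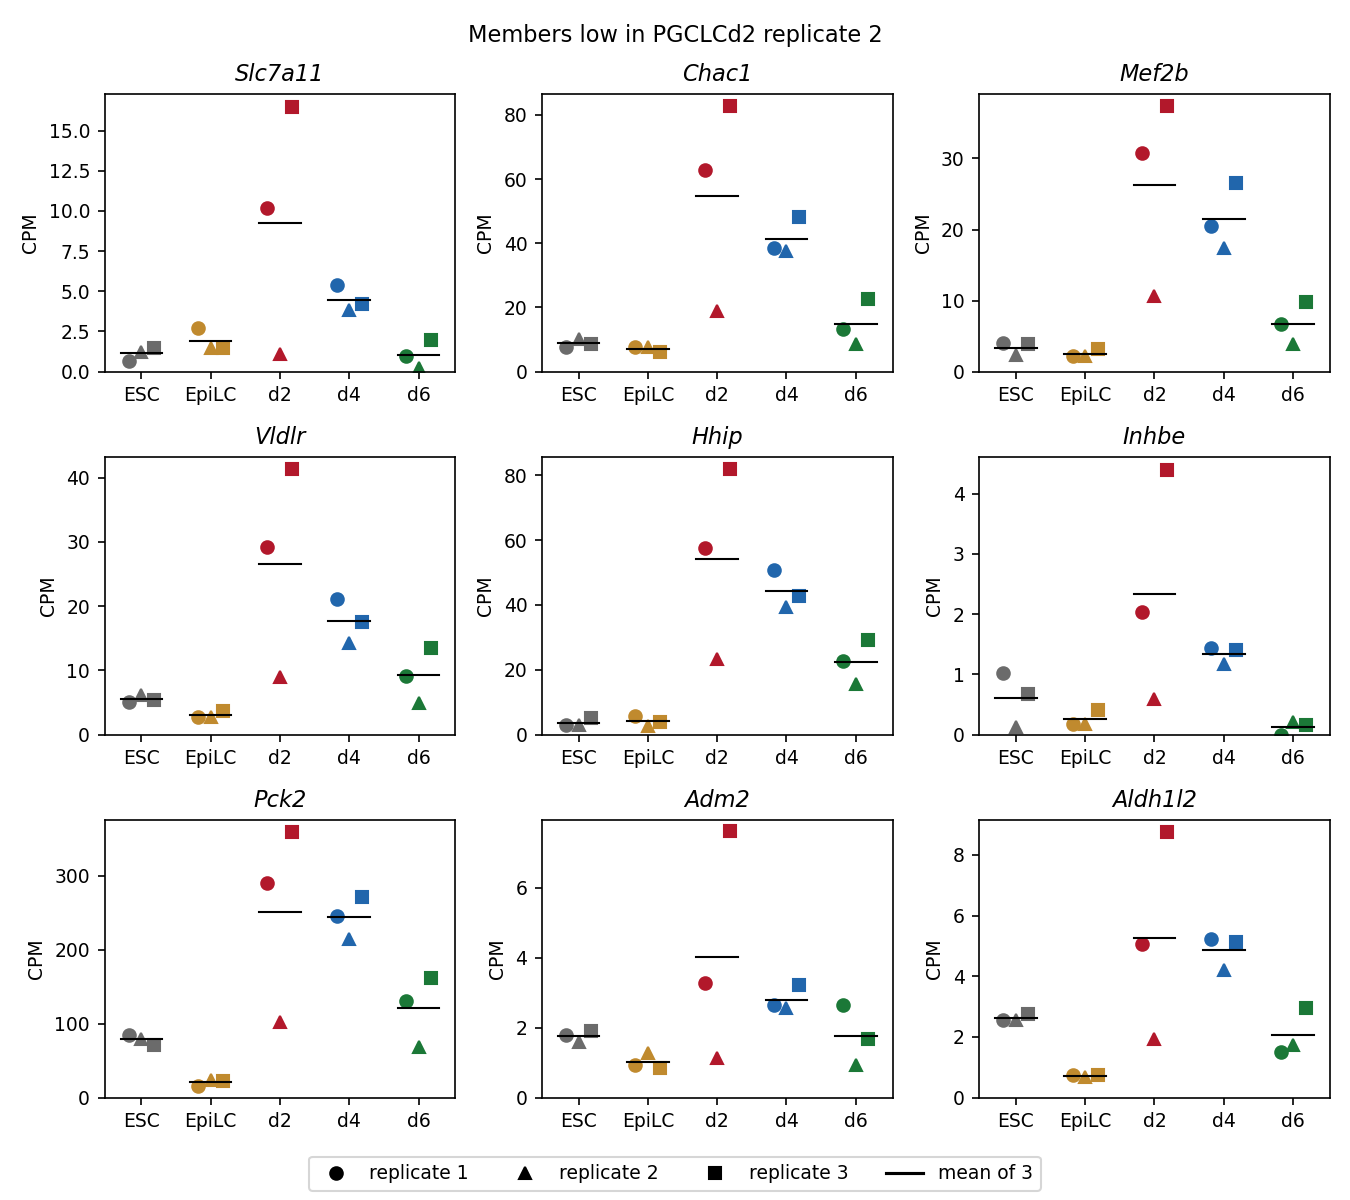
CPM of the 9 members that were low in PGCLCd2 replicate 2, with a point per replicate in each of the 5 groups and a line at the group mean. In every panel the PGCLCd2 points are far apart and the low point is replicate 2, while replicate 3 is the highest of that group.

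The list genes that are not members showed the same library. Of the 24, replicate 2 was the lowest PGCLCd2 sample for 22, and of the whole list for 26 of 28, against 38.3% of those 11803 genes; Dnajb9 and Hspa5, both of the unfolded protein response, were the exceptions. The median of replicate 2 was 48.1% of the mean of the others over the 24, against 99.0% over all genes. In replicates 1, 2 and 3 of PGCLCd2, Asns, which makes asparagine, was at 1380.1, 948 and 1621 CPM, and Trib3, a pseudokinase induced by ATF4, was at 86.7, 25.4 and 129. Atf4 itself was at 321, 199 and 406 and Sesn2, a sestrin, at 187, 92.2 and 221. The summed level of all 28 genes was 6368, 4245 and 7419 CPM in PGCLCd2, 5563, 5449 and 5892 in PGCLCd4, 4134, 3193 and 4388 in PGCLCd6, 4393, 4378 and 4341 in ESCs and 3576, 3480 and 3510 in EpiLCs, and the most abundant of them in PGCLCd2 was Asns with a mean of 1316. Replicate 2 was also the lowest for 23 of the 28 in PGCLCd6 and for 19 of the 28 in PGCLCd4, against 34.5 and 34.8% of the same 11803 genes.

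**Figure D4:**
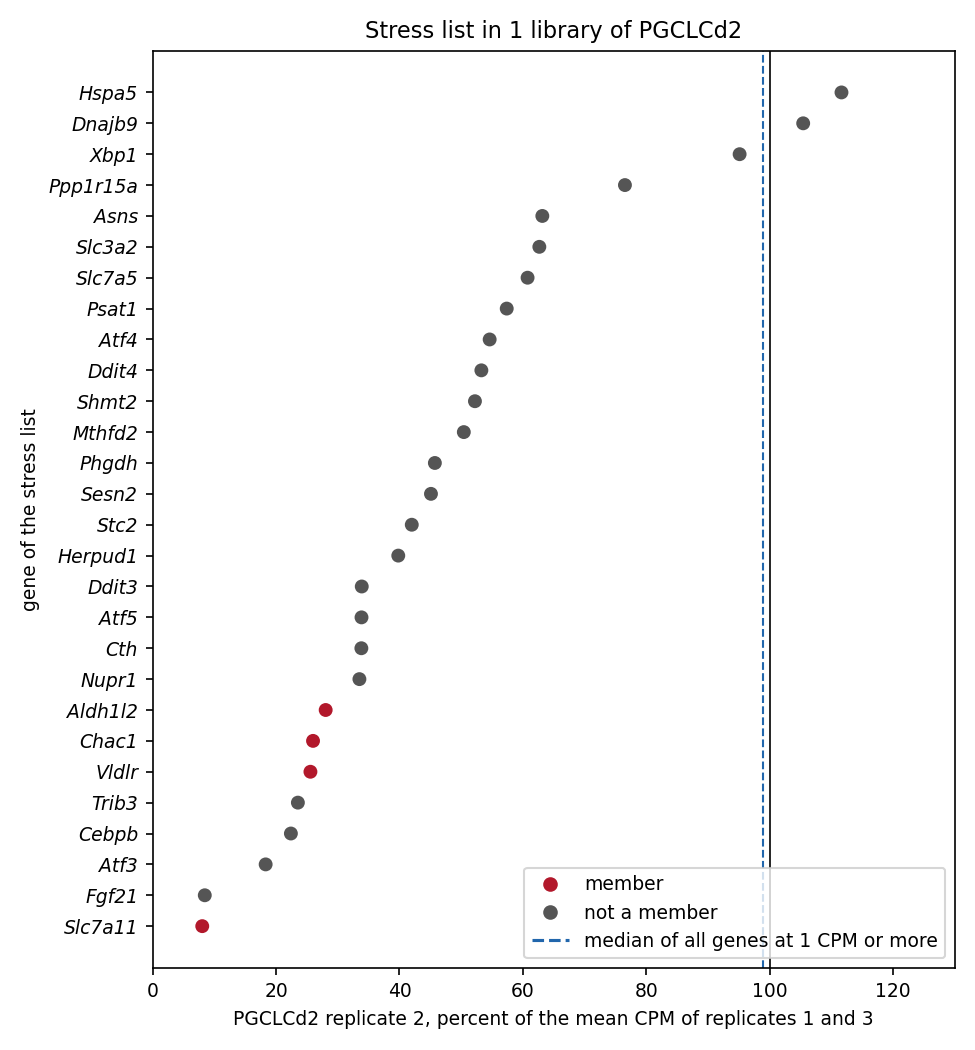
PGCLCd2 replicate 2 as a percent of the mean of replicates 1 and 3, for the 28 genes of the stress list, members and others marked apart. The dashed line is the median over all genes, 99.0%, and nearly all list genes lie to its left.

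Another list moved with replicate number. Of the genes of hypoxia and glycolysis at 1 CPM or more, replicate 2 was the highest sample for 30 of 33 in PGCLCd2, 31 of 34 in PGCLCd4 and 29 of 34 in PGCLCd6, against 33.0, 26.9 and 28.9% of all genes at that level, protein-coding or not. The summed level of the list was 10859, 16556 and 10322 CPM in PGCLCd2, 10742, 16233 and 9342 in PGCLCd4 and 9762, 13266 and 8155 in PGCLCd6, against 16575, 16369 and 17029 in ESCs and 18585, 19191 and 19886 in EpiLCs; its most abundant gene in PGCLCd2 was Gapdh, with a mean of 3099.9 CPM. The list was read by replicate after the data were seen, and whether its pattern bears on that of the stress genes was not tested. The members on this list are Car12 and Ero1l, and both were highest in replicate 2 within PGCLCd2, at 25.6 and 225 CPM.

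What PGCLCd2 replicate 2 does to the rule was measured directly. With PGCLCd2 replicate 2 alone as the day 2 value, 94 members still had a score above 0, and 6 did not: Slc7a11 at -0.48, Adm2 at -0.37, Aldh1l2 at -0.30, Pck2 at -0.23, Vldlr at -0.03 and Inhbe at -0.02. With that library left out, 12 of the 100 genes chosen were on the stress list, and with PGCLCd6 replicate 1 left out 6 were, against 4 with all samples. The 24 list genes outside the members were tested across days, a step chosen after the data were seen. PGCLCd2 against EpiLCs called 10 of them higher and 0 lower, with a median log2 fold change of 0.64, where called means past 0.05 after Benjamini-Hochberg adjustment in edgeR's quasi-likelihood test, with an absolute log2 fold change over 1; over all 18090 genes tested 11% were called higher and 14.4% lower. At an unadjusted p under 0.05 that test gave 12 higher and 3 lower, and DESeq2 called 10 and 0. The higher ones were Atf5, Trib3, Asns, Sesn2, Nupr1, Slc7a5, Psat1, Shmt2, Mthfd2 and Cth; 6 were called without PGCLCd2 replicate 3. PGCLCd6 against PGCLCd2 called 0 higher and 4 lower (Atf3, Asns, Shmt2 and Stc2), with a median of -0.75, against 10.9 and 2.75% of all genes. Unadjusted, edgeR gave 2 higher and 17 lower for it, and DESeq2 called 0 and 3. Those 4 became 13 without PGCLCd2 replicate 2, 0 without PGCLCd2 replicate 3 and 10 without PGCLCd6 replicate 3, and the 0 higher became 1 without PGCLCd6 replicate 2. With replicate number as a block, 9 were called higher in PGCLCd2 against EpiLCs and 3 lower in PGCLCd6 against PGCLCd2; within each replicate number the summed level of the list was lower in PGCLCd6 than in PGCLCd2.

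The promoters of these genes are shown because the members move together between libraries of the same day. ATF4 with a C/EBP partner binds a composite element whose core can be written TGATGNAA, and this word, chosen after the data were seen, was looked for on both strands in RefSeq promoter windows of GRCm38.p6 (300 bases, 250 before and 50 after the gene's start). Of the 9 members low in PGCLCd2 replicate 2, 8 have a window and 5 of these hold the word: Slc7a11, Chac1, Vldlr, Inhbe and Pck2. The windows of Mef2b, Hhip and Adm2 hold no match and are not printed. On the stress list it was held by 9 of the 25 genes with a window, and in the whole table by 1219 of 27025 genes (4.51%) and by 3.97% of the 32851 windows. Slc7a11, Chac1 and Vldlr are counted both among the members and on the list. The list holds genes of a response that ATF4 drives, so a high share was favoured by the choice. A match is a description of the sequence and not a site shown to be bound. The windows are chr3:50443564-50443863 on the minus strand for Slc7a11, chr2:119350992-119351291 on the plus strand for Chac1, chr19:27216770-27217069 on the plus strand for Vldlr, chr10:127351799-127352098 on the minus strand for Inhbe and chr14:55540016-55540315 on the plus strand for Pck2. Each is printed 5′ to 3′ on the gene's strand, with the matches on either strand in capitals. In Slc7a11 there are 2 matches, in opposite orientations, which begin 66 and 47 bases before the start. The match begins 193 bases before it in Chac1, 200 in Vldlr, 181 in Inhbe and 103 in Pck2. The start meant is that of the RefSeq window, and the windows shown for Vldlr and Inhbe lie inside the genes as annotated in GENCODE. Vldlr has another window, chr19:27216234-27216533 on the plus strand, which covers its annotated start and holds no match. Within 100 bases before the start the word is held by 1 of the 8 members with a window, Slc7a11, and by 1.54% of all windows. The first counts genes and the second windows, so the shares are not alike and nothing is read from them.
Slc7a11: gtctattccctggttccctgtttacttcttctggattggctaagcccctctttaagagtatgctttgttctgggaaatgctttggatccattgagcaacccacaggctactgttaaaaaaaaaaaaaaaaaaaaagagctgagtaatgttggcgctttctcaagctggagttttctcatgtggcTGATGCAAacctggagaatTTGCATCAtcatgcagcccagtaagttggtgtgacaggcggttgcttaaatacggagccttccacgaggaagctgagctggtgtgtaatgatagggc
Chac1: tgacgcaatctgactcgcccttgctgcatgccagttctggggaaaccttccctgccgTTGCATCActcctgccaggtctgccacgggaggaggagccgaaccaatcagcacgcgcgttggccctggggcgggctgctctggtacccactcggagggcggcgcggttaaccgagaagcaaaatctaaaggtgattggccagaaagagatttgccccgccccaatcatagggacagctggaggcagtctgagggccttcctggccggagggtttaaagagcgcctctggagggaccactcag
Vldlr: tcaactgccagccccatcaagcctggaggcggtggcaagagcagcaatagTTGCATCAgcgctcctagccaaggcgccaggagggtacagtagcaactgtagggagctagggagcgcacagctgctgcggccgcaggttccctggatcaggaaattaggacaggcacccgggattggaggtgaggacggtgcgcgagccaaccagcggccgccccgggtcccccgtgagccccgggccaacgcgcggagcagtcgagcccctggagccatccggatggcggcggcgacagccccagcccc
Inhbe: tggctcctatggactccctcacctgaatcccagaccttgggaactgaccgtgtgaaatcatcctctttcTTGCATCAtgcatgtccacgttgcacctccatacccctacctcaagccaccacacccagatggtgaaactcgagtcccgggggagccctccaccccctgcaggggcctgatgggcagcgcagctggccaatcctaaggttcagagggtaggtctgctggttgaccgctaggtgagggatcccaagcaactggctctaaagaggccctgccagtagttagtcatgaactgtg
Pck2: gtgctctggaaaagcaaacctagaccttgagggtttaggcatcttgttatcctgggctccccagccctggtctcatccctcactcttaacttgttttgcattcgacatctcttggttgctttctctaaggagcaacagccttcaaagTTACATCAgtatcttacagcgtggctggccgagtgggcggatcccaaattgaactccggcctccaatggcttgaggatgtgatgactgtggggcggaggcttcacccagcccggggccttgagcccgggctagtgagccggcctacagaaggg

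Chdh and Il17rb are neighbours that peaked together. Chdh (ENSMUSG00000015970, chr14:30009023-30040527), the mitochondrial choline dehydrogenase, and Il17rb (ENSMUSG00000015966, chr14:29996135-30008896), a cytokine receptor, are read away from each other, and their starts are 127 bases apart. Chdh (score 2.01) was at 22.2, 26.1 and 16.3 CPM in PGCLCd2, 16.5, 11.6 and 10.2 in PGCLCd4 and 4.32, 4.75 and 4.67 in PGCLCd6, against 0.611, 0.522 and 0.172 in EpiLCs and 0.255, 0.0443 and 0.0336 in ESCs. Il17rb (score 1.75) was at 4.40, 5.15 and 2.61 CPM in PGCLCd2, 2.08, 1.83 and 2.22 in PGCLCd4 and 0.522, 0.702 and 0.215 in PGCLCd6, and at 0.133 to 0.675 in ESCs and EpiLCs. Both were highest in replicate 2 and lowest in replicate 3 of PGCLCd2, but by PGCLCd6 Chdh was well above its EpiLC samples and Il17rb overlapped them. In PGCLCd6 against ESCs Chdh was higher by a log2 fold change of 5.19 (SE 0.45) in 3 of 3 samples (adjusted p = 1.97e-08, edgeR's quasi-likelihood test with Benjamini-Hochberg adjustment), and against EpiLCs by 3.18 (SE 0.35), also in 3 of 3 (adjusted p = 3.55e-07). The stretch between the genes is shown for this pair: of the 3 RefSeq windows of Chdh, that at chr14:30008750-30009049 on the plus strand of GRCm38.p6 also covers the start of Il17rb. It holds the AP-2 word GCCNNNGGC (searched on both strands, held by 16.6% of all windows and 202 bases before the start of Chdh), printed in capitals; Tfap2c is an AP-2 factor, and the match is again only a description. It lies outside the window of Il17rb itself, which holds another match 175 bases before its start; of the other Chdh windows, which lie inside the gene, 1 holds 2 matches and the other none. For this report the windows of 13 members, chosen for their values, were read singly. Of these members, 6 hold the AP-2 word (Chdh, Il17rb, Phf19, Vldlr, Hhip and Pck2) and 7, Dner and Rhof among them, do not. A member is counted if any of its windows holds the word, so this count is not comparable with the share of single windows. The windows with a match had a GC content of 53.7 to 74.3%, against a median of 52.7% over all windows. Whether GC content bears on the matches was not tested.
Chdh: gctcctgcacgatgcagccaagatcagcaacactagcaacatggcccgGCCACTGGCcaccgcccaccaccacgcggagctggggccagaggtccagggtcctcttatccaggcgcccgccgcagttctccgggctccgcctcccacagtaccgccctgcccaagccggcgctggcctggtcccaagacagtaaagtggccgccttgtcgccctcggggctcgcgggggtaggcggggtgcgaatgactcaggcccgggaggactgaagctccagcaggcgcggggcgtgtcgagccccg

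There are 3 pairs of members within 100 kb of each other. Besides Chdh and Il17rb they are Rhof with Setd1b, a histone H3 lysine methyltransferase, on chr5 with 9500 bases between the genes, and Slc23a4, a transporter of the vitamin C transporter family, with Tmem140 on chr6 with 70331 bases between them. Rhof and Setd1b are read away from each other, and their means in PGCLCd2 were 13.3 and 61.8 CPM. Tmem140 shares 37.0% of its exonic bases with Cyren on the other strand, so its counts may hold reads of that gene. In all, 32 members share exonic bases with another annotated gene, and 11 share at least 10% of theirs.

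Among transcription factors, Msc, a basic helix-loop-helix repressor, was at 28.2, 20.3 and 31.6 CPM in PGCLCd2, 17.3, 14.6 and 21.7 in PGCLCd4 and 9.40, 8.45 and 12.7 in PGCLCd6, with ESCs and EpiLCs at 1.14 to 3.13. Foxj1, which drives the genes of motile cilia, was at 12.1, 10.7 and 15.1 CPM in PGCLCd2 and 7.81, 5.37 and 11.4 in PGCLCd4, against 3.99, 4.39 and 2.99 in EpiLCs. For both, the PGCLCd2 samples lay above those of ESCs and EpiLCs. Gata2, a zinc-finger factor of blood and trophoblast, was at 10.9, 16.1 and 7.35 CPM in PGCLCd2, 6.72, 6.30 and 6.37 in PGCLCd4 and 7.43, 5.08 and 4.64 in PGCLCd6, and at 1.84 to 4.09 in ESCs and EpiLCs, and PGCLCd2 replicate 3 lay just under the highest PGCLCd6 sample. Msx2, a homeobox factor that responds to BMP, had means of 0.762 CPM in ESCs, 0.313 in EpiLCs, 2.87 in PGCLCd2, 1.80 in PGCLCd4 and 0.881 in PGCLCd6. Nr4a1, an orphan nuclear receptor and immediate early gene, was at 71.4, 61.9 and 71.4 CPM in PGCLCd2 and 62.4, 60.01 and 71.6 in PGCLCd4, which overlap. Arid5a, a protein that binds DNA and RNA, had means of 2.19 CPM in EpiLCs, 14.8 in PGCLCd2 and 5.46 in PGCLCd6.

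Receptors and signalling proteins included Ednra, an endothelin receptor, with means of 0.0739 CPM in ESCs, 0.128 in EpiLCs, 3.21 in PGCLCd2, 1.21 in PGCLCd4 and 0.721 in PGCLCd6. Dusp4, a phosphatase that removes the activating phosphates of ERK, was at 200.3, 162 and 178 CPM in PGCLCd2, 159, 152 and 143 in PGCLCd4, 96.01, 80.05 and 110.2 in PGCLCd6 and 63.6, 50.6 and 62.8 in EpiLCs, with ESCs at 1.68 to 3.29. Its lowest PGCLCd2 sample was only just above its highest PGCLCd4 sample. Dusp4 and Fgfr2 are the members on a list of 26 genes of the FGF and ERK pathway. Of the other 24, PGCLCd2 against EpiLCs called 2 higher (Fgfr3 and Phlda1) and 9 lower, and PGCLCd6 against PGCLCd2 called 2 higher and 2 lower (Dusp6 and Egr1). Over all genes tested, the first comparison called 11% higher and 14.4% lower, and the second 10.9 and 2.75%. The 2 higher in PGCLCd2 became 1 without EpiLC replicate 2 or without PGCLCd2 replicate 2, and the 2 lower in PGCLCd6 became 4 without PGCLCd4 replicate 3 or without PGCLCd6 replicate 2.

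Tspan6, Tmem125 and Fermt1 are named here for their scores, and Cldn7 and Grhl3 as members on a list of epithelial genes. Tspan6, a tetraspanin of cell membranes, had means of 3.90 CPM in EpiLCs, 20.6 in PGCLCd2, 12.8 in PGCLCd4 and 6.34 in PGCLCd6, and Tmem125, a transmembrane protein, had 4.04, 13.8, 8.82 and 3.15 in the same order. Fermt1, an adaptor that activates integrins, was at 15.2, 13.9 and 11.49 CPM in PGCLCd2, 9.21, 8.98 and 9.29 in PGCLCd4, 1.60, 3.37 and 4.00 in PGCLCd6, 4.24, 3.65 and 3.06 in EpiLCs and 0.0887 to 0.336 in ESCs. Cldn7, a tight-junction claudin, was at 38.8, 37.2 and 43.1 CPM in PGCLCd2 and 28.00, 27.8 and 40.9 in PGCLCd4, and Grhl3, a transcription factor of surface epithelia, was at 52.9, 49.2 and 53.2 and 32.9, 39.6 and 28.2. PGCLCd4 replicate 3 lay within the PGCLCd2 samples for Cldn7 and no PGCLCd4 sample did for Grhl3. Cldn7 and Grhl3 are the members on a list of 38 genes of keratins, claudins and epithelial junctions. Of the 33 others tested, PGCLCd2 against EpiLCs called 6 higher (Cdh3, Cldn3, Ocln, Tjp3, Dsp and Dsg2) and 11 lower, among them Krt8, Krt18, Krt19 and Cdh1, and PGCLCd6 against PGCLCd2 called 2 higher and 6 lower, where the 2 became 1 without PGCLCd2 replicate 2. The shares over all genes tested were 11% higher and 14.4% lower in the first comparison, and 10.9 and 2.75% in the second. The median log2 fold change of the genes outside the members was -0.35 in PGCLCd2 against EpiLCs and -0.25 in PGCLCd6 against PGCLCd2, while the summed level of the whole list, members included, was highest in PGCLCd2, at 2523, 2328 and 2371 CPM, against 2122, 2189 and 2157 in EpiLCs and 2078, 2051 and 1875 in PGCLCd6.

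Other members act in DNA repair, translation and the cytoskeleton. Hmces, which shields abasic sites in DNA, was at 217, 229 and 229 CPM in PGCLCd2, 165, 180.00 and 186 in PGCLCd4, 72.2, 86.5 and 89.98 in PGCLCd6, 25.1, 25.8 and 30.5 in EpiLCs and 87.02, 80.9 and 81.6 in ESCs. Its PGCLCd6 samples overlapped the ESC samples, with EpiLCs lowest of all. Per kilobase of exon its PGCLCd2 level was 92.05 CPM, above the 65.7 of Dusp4 and the 47.2 of Phf19. Eif4g3, a scaffold of translation initiation, was at 202, 166 and 164 CPM in PGCLCd2, 149, 119 and 125 in PGCLCd4, 104, 102 and 112 in PGCLCd6 and 6.92 to 18.2 in ESCs and EpiLCs. Aif1l, an actin-binding protein, had means of 18.7 CPM in EpiLCs, 94.9 in PGCLCd2 and 36.7 in PGCLCd6.

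Metal transport was represented by Slc40a1, the iron exporter ferroportin, and Slc39a14, an importer of zinc, iron and manganese. Slc40a1 was at 0.401, 0.709 and 0.537 CPM in ESCs, 17.7, 24.2 and 21.9 in EpiLCs, 38.2, 56.8 and 31.97 in PGCLCd2, 33.5, 34.1 and 24.8 in PGCLCd4 and 9.80, 8.31 and 10.1 in PGCLCd6. EpiLCs against ESCs gave Slc40a1 a log2 fold change of 5.39 (SE 0.27), higher in 3 of 3 samples (adjusted p = 8.71e-12, edgeR's quasi-likelihood test with Benjamini-Hochberg adjustment), and it was lower in PGCLCd6 than in EpiLCs, at -1.39 (SE 0.19) in 3 of 3 (adjusted p = 4.86e-06). Slc39a14 had means of 25.6 CPM in ESCs, 87.5 in EpiLCs, 177 in PGCLCd2, 145 in PGCLCd4 and 83.4 in PGCLCd6, so PGCLCd6 was near the EpiLC level for Slc39a14 and under it for Slc40a1. Pla2g4e, a cytosolic phospholipase, ran the other way at the EpiLC step: it was at 8.12, 10.9 and 8.06 CPM in ESCs, 0.611, 0.460 and 0.515 in EpiLCs, 37.1, 31.3 and 35.6 in PGCLCd2, 29.1, 22.03 and 25.5 in PGCLCd4 and 13.9, 8.12 and 10.4 in PGCLCd6. EpiLCs against ESCs gave -3.98 (SE 0.24) and PGCLCd6 against EpiLCs 4.13 (SE 0.23) as log2 fold changes, each in 3 of 3 samples (adjusted p = 7.93e-11 and 4.81e-11, edgeR's quasi-likelihood test with Benjamini-Hochberg adjustment), and its PGCLCd6 samples overlapped those of ESCs. AU015836, a gene with no role known here, had means of 0.365 CPM in ESCs, 15.00 in EpiLCs, 63.7 in PGCLCd2, 34.3 in PGCLCd4 and 33.2 in PGCLCd6.

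How the members stood among ESCs, EpiLCs and PGCLCd6 was tested in comparisons that do not contrast PGCLCd2. The rule read the highest of these groups, so the counts are a description of the members and support nothing further. All 100 passed the filter on low counts with the 15 samples, but Sbp and Abcg5 passed only through PGCLCd2. EpiLCs against ESCs, the step into the epiblast-like state, called 34 members higher and 8 lower, with 14.4 and 11.9% of all 18090 genes called; the members' median log2 fold change was 0.49 and that of all genes -0.01. PGCLCd6 against ESCs called 46 higher and 1 lower (Inhbe), against 15.8 and 10.3% of all genes, with medians of 1.02 and -0.00. PGCLCd6 against EpiLCs called 31 higher and 3 lower (Slc40a1, Prlr and Fgfr2), against 15.9 and 12%, with medians of 0.54 and 0.03. These comparisons share samples and are not independent of each other. With the PGCLCd2 samples left out of both the filter and the fit, an alternative chosen after seeing the data, 98 members were tested; 33 were called higher and 8 lower in EpiLCs against ESCs, 44 and 1 in PGCLCd6 against ESCs, and 27 and 3 in PGCLCd6 against EpiLCs. Without a replicate in turn, the 1 lower member became 0 without ESC replicate 1, ESC replicate 3 or PGCLCd6 replicate 1, and the 3 became 6 without PGCLCd6 replicate 2 or 3.

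**Figure D5:**
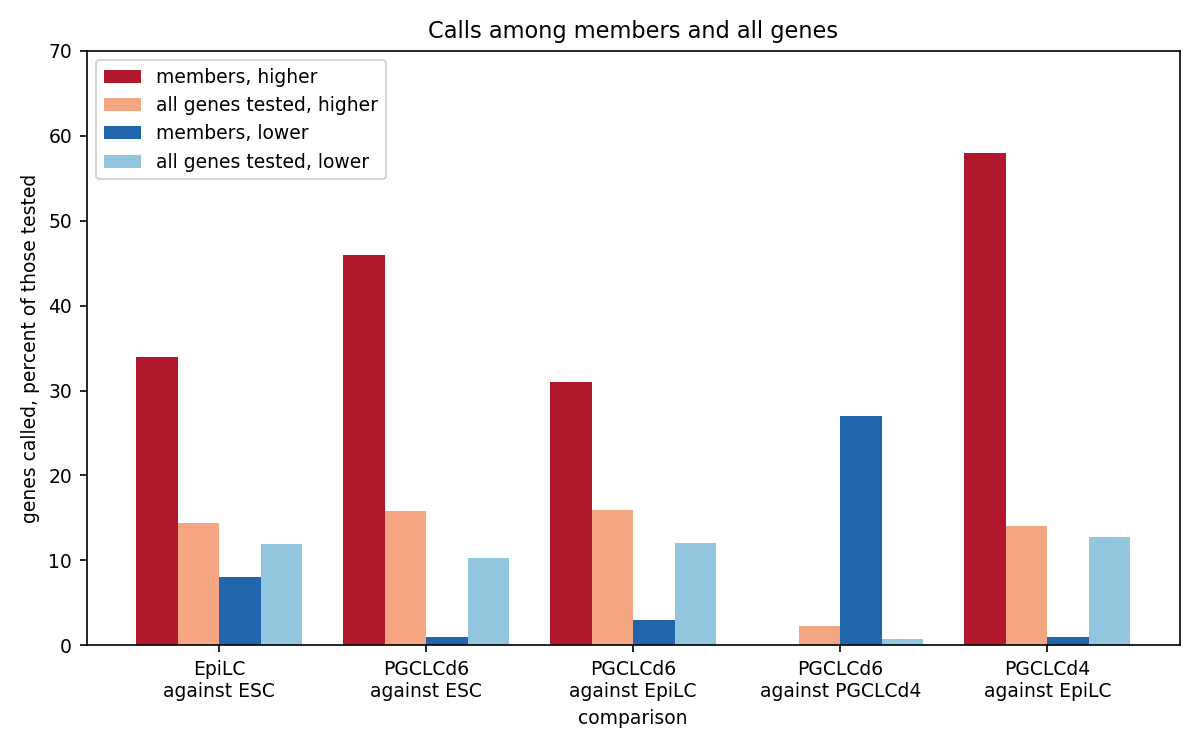
Percent of genes called higher or lower in 5 comparisons that do not contrast PGCLCd2, from the fit over all 15 samples, for the 100 members and for all 18090 genes tested. The members' bars on the higher side stand at 34, 46 and 31% in the comparisons among ESC, EpiLC and PGCLCd6, against 14.4, 15.8 and 15.9% of all genes, and those for PGCLCd6 against PGCLCd4 and for PGCLCd4 against EpiLC are favoured by how the members were chosen.

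Across EpiLCs against ESCs, PGCLCd6 against ESCs and PGCLCd6 against EpiLCs, 36 members had no call, and the most common pattern with calls, in 24, was higher in EpiLCs and in PGCLCd6 than in ESCs with no call between the later groups. Chdh, Phf19, 1700024G13Rik and Eif4g3 were called higher in each of these comparisons. Higher in EpiLCs than ESCs and then lower in PGCLCd6 than EpiLCs were Slc40a1, Prlr and Fgfr2. For Fgfr2, PGCLCd6 against EpiLCs gave a log2 fold change of -1.21 (SE 0.14) in 3 of 3 samples (adjusted p = 7.50e-07, edgeR's quasi-likelihood test with Benjamini-Hochberg adjustment), after 5.76 (SE 0.21) for EpiLCs against ESCs. Lower in EpiLCs and back up in PGCLCd6 were 7 members, Pla2g4e, Hmces, Pck2, Serpinb9b, Lrrn4cl, Grhl3 and Aldh1l2. Of these, Serpinb9b is an inhibitor of serine proteases; EpiLCs against ESCs gave it -1.94 (SE 0.19) in 3 of 3 samples (adjusted p = 7.29e-08, edgeR's quasi-likelihood test with Benjamini-Hochberg adjustment), and Lrrn4cl -2.85 (SE 0.28) in 3 of 3 (adjusted p = 7.12e-08). Pck2 went down by the same comparison with -1.83 (SE 0.33) in 3 of 3 samples (adjusted p = 1.34e-04, edgeR's quasi-likelihood test, Benjamini-Hochberg). Porcn was the member lower in EpiLCs than ESCs and higher than both in PGCLCd6, with 2.63 (SE 0.13) against EpiLCs in 3 of 3 samples (adjusted p = 5.38e-12, edgeR's quasi-likelihood test with Benjamini-Hochberg adjustment).

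A few members were at or near 0 counts in a group, where a fitted fold change depends on the count the fit adds. With a floor of 3 counts over a group for a count of 0, Cdh5 was at least 4.16-fold higher in EpiLCs than in ESCs, and in PGCLCd6 against ESCs 1700024G13Rik was at least 14.8-fold and Prss52, a serine protease, at least 7.27-fold higher. These bounds fell to 2.16 for Cdh5 without EpiLC replicate 1, which holds 9 of its 14 counts, and to 9.27 and 4.56 for the others without ESC replicate 3, and Cdh5 was no longer called without that EpiLC library or without any single ESC replicate. Tnnt3 held 1 count in ESCs, and its ratio was 110.5 in EpiLCs (95% exact counting interval 19.5 to 4399) and 138 in PGCLCd6 (24.5 to 5486). Without ESC replicate 1, which holds that count, the floor gives at least 24.2-fold in EpiLCs and 30.2-fold in PGCLCd6. Sbp, a spermine-binding protein, held 1 count in EpiLCs, and no ratio is given for it, since it passed the filter only through PGCLCd2. Floors and intervals cover counting error only. In single samples these genes are thinly covered: Sbp was at 0.538, 2.04 and 0.689 CPM in PGCLCd2, and Prss52 at 0.897, 1.63 and 1.01.

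Comparisons with PGCLCd4 are favoured by the rule, which held PGCLCd4 under PGCLCd2 and PGCLCd6 low, and nothing is read from their counts. PGCLCd6 against PGCLCd4 called 0 members higher and 27 lower, against 2.29 and 0.785% of all genes (medians -0.82 and -0.01); at an unadjusted p under 0.05 edgeR's quasi-likelihood test gave 0 higher and 74 lower, and DESeq2 gave 0 and 75 and called 0 higher. PGCLCd4 against EpiLCs called 58 higher and 1 lower (Prlr), against 14 and 12.8% (medians 1.35 and 0.03); the 1 became 0 without EpiLC replicate 1 or PGCLCd4 replicate 2. The drop differed between members: Inhbe was at 1.43, 1.17 and 1.40 CPM in PGCLCd4 and 0, 0.211 and 0.154 in PGCLCd6, where Pck2 kept 48.1% of its PGCLCd2 mean.

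The rule was also read in replicates it had not used. Each replicate number was left out of all groups in turn, 100 genes were chosen on the rest, and their height was read in the replicates left out. Without replicate number 1, 97 of the 100 genes had a score above 0 in it, 87 for number 2 and 94 for number 3, against 16.3, 14.7 and 14.5% of the 18346 protein-coding genes with any count. Both the score above 0 and PGCLCd2 at or above PGCLCd4 held for 90, 67 and 82 of the 100. No value over all genes is given for this joint condition. The replicates numbered 2 thus gave the lowest share on each measure. The 3 choices shared 83, 81 and 83 genes with the members. No label says that the replicates were separate cultures, so these counts describe agreement between libraries and support nothing further.

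On 8 of 30 lists of known genes there were 14 members, while the lists together hold 3.86% of the 18346 protein-coding genes with any count; the lists were drawn up with earlier results of these data known, so these shares are only described. The other 22 lists, those of early germ cell genes, naive pluripotency and late germ cell genes among them, held none. Beside the stress, hypoxia, epithelial and FGF lists, Msx2 was on that of gastrulation mesoderm, Gata2 on that of trophoblast and AP-2 genes, Nr4a1 on that of immediate early genes and Cdh5 on the endothelial one. Over all 18090 genes tested, PGCLCd2 against EpiLCs called 11% higher and 14.4% lower, and PGCLCd6 against PGCLCd2 10.9 and 2.75%. Counts on the lists below that lie near these shares are not read as a result. Of the 26 early germ cell genes, all outside the members, PGCLCd2 against EpiLCs called 16 higher and 2 lower, and PGCLCd6 against PGCLCd2 called 4 lower (2 without PGCLCd6 replicate 1). Of 24 trophoblast and AP-2 genes outside the members, 10 were called higher and 5 lower in PGCLCd2 against EpiLCs, and 9 higher and 1 lower in PGCLCd6 against PGCLCd2 (3 lower without PGCLCd6 replicate 2, 2 without PGCLCd2 replicate 3). Of 30 immediate early genes, PGCLCd2 against EpiLCs called 14 lower, and PGCLCd6 against PGCLCd2 called 1 higher and 6 lower. Of 25 genes of gastrulation mesoderm outside the members, PGCLCd2 against EpiLCs called 6 higher and 5 lower (8 lower without PGCLCd2 replicate 2), and PGCLCd6 against PGCLCd2 called 2 higher and 1 lower (4 higher without PGCLCd2 replicate 2, 3 lower without PGCLCd6 replicate 2). Cdh5, the cadherin of endothelial cells, was at 1.47, 0.588 and 0.632 CPM in PGCLCd2; the endothelial list summed to 385, 395 and 368 CPM there, of which Pecam1, also a marker of pluripotent cells, had a mean of 344, while Emcn was at 0. Whether other cells in the sorted fraction bear on Cdh5 was not tested.

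Of what the rule did not use, gene structure set the members apart little. The median exonic length was 4050 bases, against 3923 over the protein-coding genes with any count, with 10.5 separate exonic stretches against 9 and a GC content of 51.8 against 49.7%. Genes named Tmem were 5 of the 100 members against 1.24% of all, genes named Slc 4 against 1.99%, and genes named Gm 0 against 3.48%. Chromosome 14 held 9 members against 3.79% of all genes, which includes Chdh with Il17rb.

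At the threshold, values were nearly continuous. The last members were Ptpn3, a tyrosine phosphatase, Arhgef1, a guanine nucleotide exchange factor, and Cdh5, each with a score of 0.71; the mean CPM of Ptpn3 was 64.6 in EpiLCs, 129 in PGCLCd2 and 78.6 in PGCLCd6, and that of Arhgef1 93.8, 224 and 137 in the same order. Just outside, with a score of 0.70 each, were Cyb5r2, a reductase of cytochrome b5, Slc7a5, a transporter of large neutral amino acids on the stress list, and Socs2, an inhibitor of cytokine signalling. Slc7a5 was at 283 CPM in EpiLCs, 663 in PGCLCd2 and 407 in PGCLCd6, and Socs2 at 111, 183 and 112. The condition on PGCLCd4 kept out 8 genes that their scores would have placed in the first 100, among them P2rx3 with a score of 2.11 and the germ cell genes Dnd1 and Nanos3, named after their values were seen. Their PGCLCd2 and PGCLCd4 means were 6.98 and 9.06 CPM for P2rx3, 36.9 and 45.7 for Dnd1 and 14.4 and 17.6 for Nanos3.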

How the data were processed

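The values are counts per gene, deposited by the authors as a table of 15 samples and 55536 genes; per their notes, reads were trimmed with Trim Galore, checked with FastQC and aligned to mm10 with STAR, with no versions stated. All identifiers matched GENCODE M21. CPM used column totals. Tests were edgeR 4.0.16 quasi-likelihood fits in R 4.3.3 over all 15 samples with a coefficient per group, TMM scaling and filterByExpr with a minimum count of 10, which left 18090 genes for Benjamini-Hochberg adjustment; DESeq2 1.42.0 was an alternative. Tables and figures were made with Python 3.11.15, pandas 2.3.3 and matplotlib 3.10.9. The members and lists were chosen with earlier results of these data known. Genes were named by a rule: the 20 highest scores, the 10 highest PGCLCd2 means, members on a list, the 5 smallest and 5 largest differences between PGCLCd2 and PGCLCd4, 3 genes on each side of the limit, neighbours within 100 kb, and the 5 highest and 5 lowest called changes per comparison (10 counts needed in a PGCLCd2 sample for differences and changes), 55 genes in all; others are marked as chosen after their values were seen. Alternatives changed the tool, scaling, filter, groups, replicate block, threshold, added value, each replicate and PGCLCd2 in the fit. No sample was left out.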

Additional observations from a re-analysis of the deposited data

How the results depend on the processing

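Leaving out each replicate in turn gave 30 to 34 higher and 8 to 10 lower in EpiLC against ESC, 42 to 48 and 0 to 1 in PGCLCd6 against ESC, 28 to 33 and 3 to 6 in PGCLCd6 against EpiLC, 0 and 22 to 28 in PGCLCd6 against PGCLCd4, and 53 to 60 and 0 to 1 in PGCLCd4 against EpiLC. The rule chose 74 to 100 of the members again.

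With an adjusted p under 0.05 and no fold change asked for, the members called were 41 higher and 15 lower in EpiLC against ESC (26.3 and 26.2% of all genes), 57 and 3 in PGCLCd6 against ESC (27.7 and 26.0%), 44 and 7 in PGCLCd6 against EpiLC (30.2 and 27.2%), 0 and 62 in PGCLCd6 against PGCLCd4 (6.03 and 6.82%) and 77 and 2 in PGCLCd4 against EpiLC (29.6 and 26.1%). Fitting the compared groups alone called fewer members higher, 28 in EpiLC against ESC, 39 in PGCLCd6 against ESC and 24 in PGCLCd6 against EpiLC, and gave 0 lower in PGCLCd6 against ESC; no filter on low counts gave 5 lower in PGCLCd6 against EpiLC; the cause was not tested. The replicate block, a paired term for replicate number, gave 34 higher and 8 lower, 45 and 1, 29 and 3, 0 and 29, and 57 and 1 in the same order of comparisons. Replicates sharing a number had a mean correlation of residuals of 0.0358 over 30 pairs, against -0.0179 over 60 other pairs; the highest was 0.208 and 6 of the 30 were over 0.1. The labels do not say whether samples sharing a number were cultured side by side.

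Of the 100 members, a mean of at least 10 CPM in PGCLCd2 kept 65, and counting PGCLCd4 among the groups to be exceeded kept 57. The rule kept 89 with 0.5 added to the CPM, 71 with 4 added, 88 with TMM scaling, 80 with medians of replicates and 92 with no condition on PGCLCd4.

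For single genes, 28 of 35 tested pairs of gene and comparison kept their call in every alternative, and 688 of 727 refits kept it, with 0 reversed and 39 weaker. The pairs with a weaker call were those of Cdh5 in EpiLC against ESC, Inhbe and Prss52 in PGCLCd6 against ESC, Prlr in PGCLCd4 against EpiLC, and S100a6, Sbp and Slc7a11 in PGCLCd6 against PGCLCd4. Sbp passed the filter only through PGCLCd2, so its call is not read. With no filter on low counts, edgeR gave far smaller adjusted p-values to some named genes: in EpiLC against ESC, Pck2 had 4.71e-70, against 1.34e-04 as reported, and Fgfr2 9.74e-204, against 6.69e-14; the cause was not tested.

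Promoter words were counted over all members in windows of 300 bases and of the 100 before the start, but that check is void, since only 72 of 100 have a RefSeq window, and nothing is read from it; the ATF4 word is given for sets with more complete windows, 8 of 9 and 25 of 28 genes, and the AP-2 word for single members as a description. Depth limits the 26 members under 5 CPM most. Chi-square per gene between replicates was 8.82 to 44.6 over 15 pairs, above what counting alone gives, and 3 samples per group set the precision. Transgene reads, separate cultures and the strand of counting are not recorded in the labels, so their part was not tested.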
